A study of Mus musculus with 3 samples.

Results

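The SLC25 mitochondrial carriers of mpkDCT4a cells, an immortalised mouse kidney line of the distal convoluted tubule (DCT), were taken from the gene table by name. A gene was a member if GENCODE M21 lists it as protein-coding and its symbol starts with Slc25a and a digit. 47 of 21974 protein-coding genes, in a table of 55487 genes, met this rule. RNA depleted of ribosomal RNA was sequenced from 3 libraries of this line, which form 1 group. No conditions could be compared, and the levels of the carriers, their order and their spread over libraries were read. The medium, the same for all libraries, held 2% fetal calf serum, the glucocorticoid dexamethasone (50 nM), triiodothyronine (1 nM), insulin (5 µg/ml), epidermal growth factor (10 ng/ml), transferrin (5 µg/ml), sodium selenate (90 nM), glutamine (2 mM), glucose (20 mM) and HEPES (20 mM). mpkDCT4a is 1 cell line, and no label ties the replicates to separate cultures, and the tests cover the spread of these libraries alone, which may be technical.

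SLC25 proteins carry metabolites across the inner mitochondrial membrane. Each is built from repeats of a pair of membrane helices, and each repeat holds, near the end of its first helix, a conserved signature in which a proline is followed by an acidic and then a basic residue. The family exchanges ADP for ATP, imports phosphate, and moves citrate, aspartate, glutamate, carnitine esters, nucleotides, iron and cofactors, on which respiration, shuttles of reducing equivalents and biosynthesis depend. The distal convoluted tubule is rich in mitochondria, which supply the ATP for its sodium transport.

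The signature could be read in the coding sequences. It was searched in frame on the coding strand as CCNNNNGANNNNNNN followed by a lysine or arginine codon, in the longest annotated coding sequence of each gene. Of the 47 members, 27 held at least 3 matches, 12 held 2, 5 held 1 and 3 held 0, whereas 2.45% of 21471 protein-coding genes held at least 3. The members with no match were Slc25a46, Slc25a51 and Slc25a53. A missing match says only that these letters do not occur in frame. The first match with its surroundings is shown for the ADP/ATP carrier paralogs, whose levels span the range of the family, and for the next highest members. The 60 bases are from GENCODE M21 transcripts (GRCm38), 5′ to 3′, and capitals mark the 18 bases of the signature.
Slc25a5: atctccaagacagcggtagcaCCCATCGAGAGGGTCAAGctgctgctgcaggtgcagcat
Slc25a4: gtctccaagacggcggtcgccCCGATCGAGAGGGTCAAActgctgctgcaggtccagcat
Slc25a31: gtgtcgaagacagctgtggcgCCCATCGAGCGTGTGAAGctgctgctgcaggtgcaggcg
Slc25a3: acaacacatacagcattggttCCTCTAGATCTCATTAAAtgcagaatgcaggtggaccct
Slc25a24: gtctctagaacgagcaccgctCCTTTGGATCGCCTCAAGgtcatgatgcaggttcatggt
Slc25a39: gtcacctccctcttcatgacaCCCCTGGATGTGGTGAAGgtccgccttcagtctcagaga
The Slc25a5 and Slc25a4 stretches, coding bases 61 to 120 of each, differed at 7 of 60 bases. Slc25a31 differed from Slc25a5 at 12 and from Slc25a4 at 15 of these bases. Over the whole coding sequence Slc25a5 and Slc25a4 were 77.4% identical over 894 aligned bases, the highest identity among the 20 paralog pairs compared, and their longest identical run was 20 bases. No pair of the 20 shared a run of more than 25 bases, so their coding sequences hold no 50-base stretch in common.

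Depth was low, at 436983 counts in replicate 1, 482418 in replicate 2 and 443192 in replicate 3. A single count therefore equalled 2.31, 2.07 and 2.24 counts-per-million (CPM) in these libraries. For genes without any count, 3 counts over the summed library sizes set an upper limit of 2.20 CPM, which covers counting error only. CPM follow one gene between libraries and say how many reads a gene or list took. Levels of different genes were compared as transcripts-per-million (TPM), in which counts are divided by the merged exon length of the gene. Levels are mean ± SD over the 3 libraries. Of 12 distal convoluted tubule markers 5 were detected, and Slc12a3, the defining cotransporter, Pvalb and Calb1 were among the 7 with 0 counts. Summed over the list, these markers took 66.3 to 94.1 CPM, led by Wnk4 (45.2 ± 11.2 CPM). The 8 proximal tubule markers took 261 to 315 CPM, most of it from Lrp2 (215 ± 14.1 CPM), followed by Aqp1 (60.3 ± 17.8 CPM). Per exon length Aqp1 was the higher, at 84.6 TPM against 47.3 TPM for Lrp2. The 8 collecting duct markers took 68.3 to 101 CPM, most of it from Gata3 (75.0 ± 16.6 CPM). The 6 leukocyte markers took 37.3 to 62.7 CPM, most of it from Csf1r (45.8 ± 11.6 CPM). The 6 thick ascending limb markers took 2.24 to 8.28 CPM. For 7 fibroblast and smooth muscle markers the sum was 13.4 to 26.9 CPM, with 1 at 0 counts. For 5 endothelial markers it was 9.23 to 11.2 CPM, with 4 at 0 counts. Of these other lists, 4 of 8 proximal tubule markers, among them Slc34a1 and Slc5a2, 4 of 8 collecting duct markers, among them Aqp2, 4 of 6 leukocyte markers, among them Ptprc, and 5 of 6 thick limb markers, among them Slc12a1 and Umod, also had 0 counts. In such bulk RNA, fewer cells with a transcript and less of it per cell cannot be told apart.

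Most of the family was expressed. 41 of 47 members (87.2%) were detected, meaning a mean of at least 1 CPM, where the share among all protein-coding genes was 50.6%. That limit lies below the 2.20 CPM that 0 counts leave possible, so detection can rest on few reads. Slc25a29 was detected at 1.49 CPM on 2 counts, both in replicate 3. At least 20 CPM was reached by 24 members (51.1%, against 34.4% of protein-coding genes) and at least 100 CPM by 6 (12.8%, against 12.2%). A count in every library was found for 34 members (72.3%, against 46.6%), and 5 had no count at all (10.6%, against 46%). The median over all 47 members was 21.5 ± 0.994 TPM, and that over protein-coding genes 1.51 ± 0.0642 TPM, the SD being that of the medians within libraries. Among detected genes alone the direction turned, with a median of 22.8 TPM for members and 31.4 TPM for protein-coding genes. The share of members at the highest levels was thus near that of genes at large, and the shares differed more at the lower limits. These shares are descriptions with no test.

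**Figure D1:**
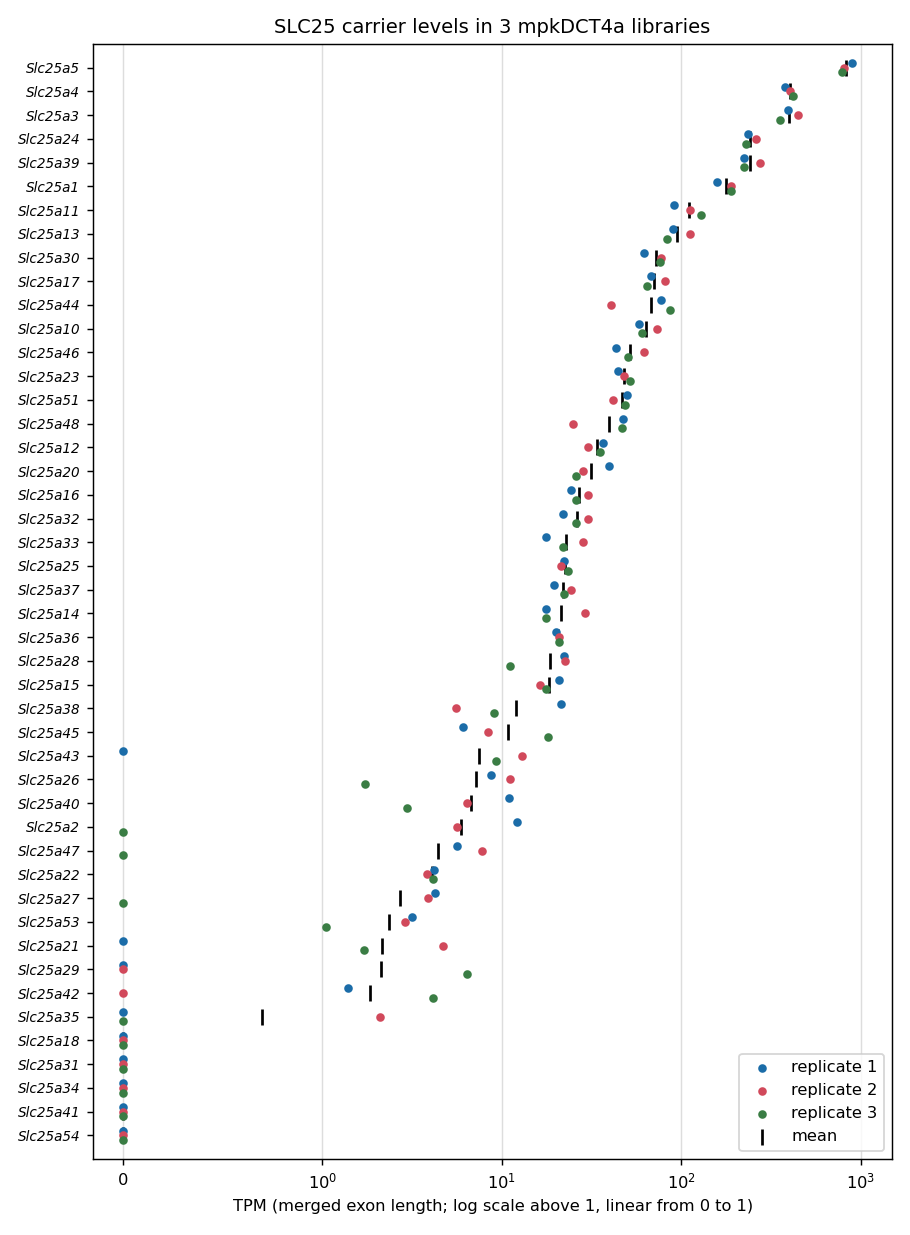
TPM of 46 of the 47 SLC25 members (horizontal axis, logarithmic above 1 and linear below) in each of the 3 libraries (coloured points) with the mean (black bar), ordered by mean. Slc25a5 stands at 825 TPM, and the 5 lowest genes are at 0 in every library.

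The ADP/ATP carriers held the largest share of the family in every library, per exon length as well as in means per coding length. All members together took 0.289%, 0.302% and 0.280% of the counts of replicates 1, 2 and 3, with 95% Clopper-Pearson intervals of 0.273 to 0.305%, 0.287 to 0.318% and 0.265 to 0.296% that overlap. Of the summed TPM of the family, 25.0 ± 1.96% came from Slc25a5, 49.2 ± 1.43% from the 3 highest members and 79.8 ± 0.697% from the 10 highest. The ADP/ATP carriers made up 37.2 ± 1.79%, the phosphate carrier 12.0 ± 0.968%, the di- and tricarboxylate carriers 10.8 ± 1.23%, the ATP-Mg/phosphate carriers 9.47 ± 0.175%, and the iron and glutathione carriers 8.70 ± 0.757%. In replicate 3 the di- and tricarboxylate carriers (379.7 TPM) lay above the phosphate carrier (356.7 TPM), so these 2 groups had no fixed order. The 9 amino acid carriers contributed 7.27 ± 0.917% and the 9 cofactor and nucleotide carriers 7.18 ± 0.351%. With coding length in place of exon length, the ADP/ATP share was 26.1 ± 1.21% and the phosphate carrier share 18.2 ± 1.39%.

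**Figure D2:**
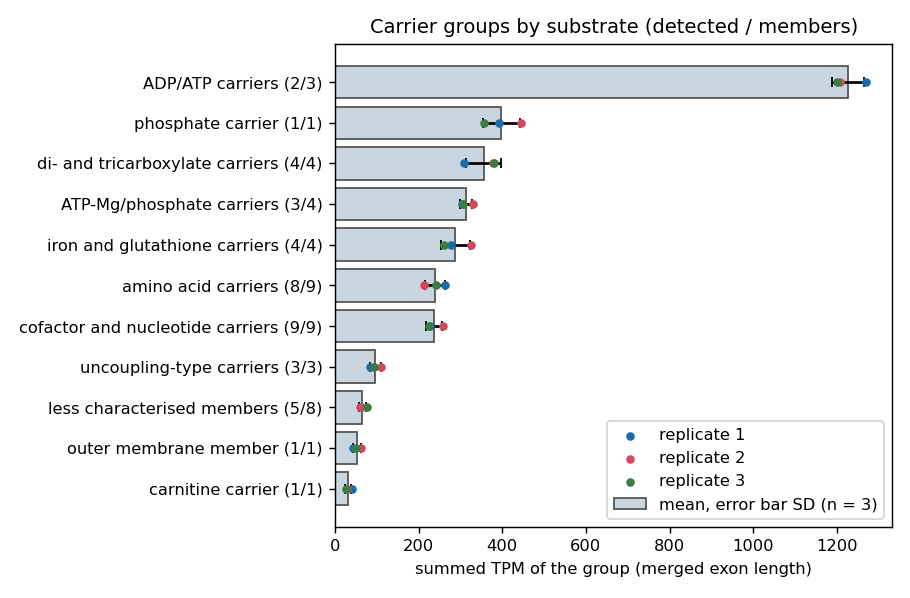
Summed TPM of each carrier group (horizontal axis) as mean with SD over 3 libraries (bars) and per library (points), with the number detected of all members in brackets. The ADP/ATP carriers stand at 1226 TPM, above every other group in all 3 libraries.

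Slc25a5, which encodes the ADP/ATP translocase of proliferating cells (ANT2), was the highest member per exon length. It had 175, 172 and 155 counts in replicates 1, 2 and 3 (ENSMUSG00000016319, chromosome X, 36795651 to 36798807, plus strand, GRCm38) and stood at 825 ± 56.5 TPM, above 99.5% of protein-coding genes. Slc25a4, the heart and muscle translocase (ANT1), had 107, 124 and 118 counts (chromosome 8, 46206797 to 46211284, minus strand) and 401 ± 18.7 TPM. Slc25a5 lay above Slc25a4 in every library, without overlap, with 2.06 times its counts per kb (95% exact binomial interval 1.79 to 2.36). The ratio was 1.44 (1.25 to 1.65) per coding length. Slc25a31, the translocase of male germ cells (ANT4), had 0 counts in all libraries. It was at least 216-fold lower than Slc25a5 per kb of exon length, computed at 3 counts over all libraries. Per coding length it had at most 0.00557 times the level of Slc25a5. Slc25a5 is the member with the largest share of repeated sequence, since 33.8% of its 50-base stretches occur in transcripts of 9 other genes, foremost the processed pseudogene Gm5560. Whether reads that match several genes were counted is not stated in the sources, and their part in this level was not tested. Divided by the exon length outside these stretches, a setting chosen after the data were seen, the ratio of Slc25a5 to Slc25a4 was 3.11 (2.70 to 3.57). This setting kept all counts, so the value is too high if reads from the shared stretches were counted.

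The promoters of these 3 paralogs are shown because the gene with 0 counts and the expressed genes could be set side by side. They are the 250 bases before the transcript start (RefSeq, GRCm38.p6), 5′ to 3′ on the gene's strand, at chrX:36795347-36795596 (plus strand), chr8:46211063-46211312 (minus strand) and chr3:40708621-40708870 (plus strand). The RefSeq starts differ from the GENCODE gene bounds. The Slc25a4 window lies mostly within its GENCODE gene, whereas the Slc25a5 window ends short of its gene. Capitals mark the dinucleotide CG, which methylation acts on.
Slc25a5: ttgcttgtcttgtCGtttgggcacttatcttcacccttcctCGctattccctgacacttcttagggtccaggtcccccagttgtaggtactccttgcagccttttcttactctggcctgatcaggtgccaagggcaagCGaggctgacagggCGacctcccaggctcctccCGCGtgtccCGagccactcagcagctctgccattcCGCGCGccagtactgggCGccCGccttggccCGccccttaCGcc
Slc25a4: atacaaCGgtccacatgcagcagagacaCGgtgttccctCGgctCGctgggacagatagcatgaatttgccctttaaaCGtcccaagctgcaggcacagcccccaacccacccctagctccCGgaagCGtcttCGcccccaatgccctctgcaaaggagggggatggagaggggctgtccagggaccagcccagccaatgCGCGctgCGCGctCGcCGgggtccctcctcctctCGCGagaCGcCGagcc
Slc25a31: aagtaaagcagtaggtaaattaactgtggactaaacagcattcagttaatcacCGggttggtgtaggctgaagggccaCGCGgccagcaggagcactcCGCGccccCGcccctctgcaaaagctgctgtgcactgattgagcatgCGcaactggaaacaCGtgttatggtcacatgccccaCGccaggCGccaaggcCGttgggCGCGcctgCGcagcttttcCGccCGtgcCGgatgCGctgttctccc
Slc25a5 held 14 CG dinucleotides, Slc25a4 held 18 and Slc25a31 also 18, so the paralog with 0 counts did not have fewer. A promoter was found for 36 of 47 members, with a median of 14 CG against 11 over 16522 protein-coding genes, counting the richest start of each gene. At least 10 CG were present in 16 of 19 members at 20 CPM or more (84.2%) and in 9 of 17 below it (52.9%), beside 87.6% and 36.2% of all protein-coding genes on the same sides of 20 CPM. The 4 members with 0 counts and a promoter ranged widely, with 18 CG in Slc25a31, 10 in Slc25a54, 2 in Slc25a18 and 1 in Slc25a34. These are counts of letters in a window, and methylation was not measured here.

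Slc25a3, the carrier that imports phosphate for ATP synthesis, had the most counts of any member, 260, 322 and 238 (chromosome 10, 91116574 to 91124059, minus strand), or 600 ± 66.8 CPM. Its merged exons span 5550 bases while its coding length is 1229 bases, so its place in the order depended on the length used. Per exon length it stood at 398 ± 44.7 TPM, and Slc25a4 had 1.00 times its level (0.883 to 1.14), with overlapping libraries. Per coding length Slc25a3 was the highest member at 671 ± 71.0 TPM, followed by Slc25a5 at 568 ± 45.4 TPM, and it had 1.19 times the level of Slc25a5 (1.06 to 1.33). Which of the annotated isoforms the reads came from is not resolved by counts per gene.

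**Figure D3:**
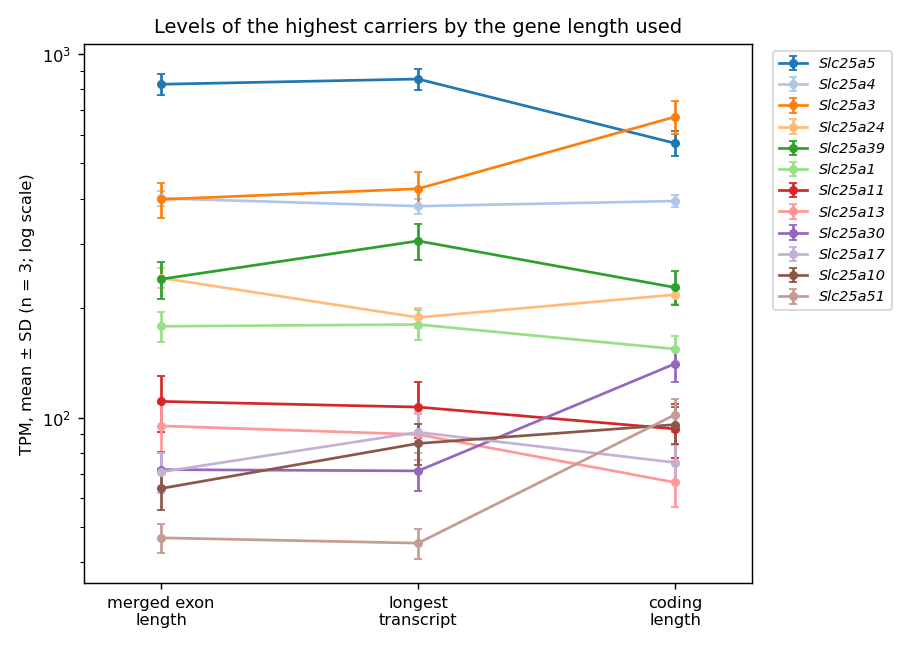
Mean TPM with SD over 3 libraries (vertical axis, log scale) of members that ranked among the 10 highest, calculated with merged exon length, longest transcript and coding length (horizontal axis). Slc25a3 moves above Slc25a5 with coding length, and Slc25a51 and Slc25a30 rise as well. Slc25a4 stands at 400.7 TPM at exon length and 394 TPM at coding length. TPM per coding length were computed over protein-coding genes only, so their scale differs from that of the other lengths.

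The next members were Slc25a24 and Slc25a39. Slc25a24, the calcium-regulated ATP-Mg/phosphate carrier SCaMC-1, had 97, 116 and 95 counts and 242 ± 15.4 TPM (chromosome 3, 109123149 to 109168457, plus strand). Slc25a39, which carries glutathione into mitochondria, had 74, 98 and 74 counts and 240.3 ± 28.3 TPM (chromosome 11, 102402985 to 102407946, minus strand). The ratio of Slc25a24 to Slc25a39 was 1.01 (0.848 to 1.19), which includes 1, as it did per coding length. With the longest transcript it was 0.615 (0.518 to 0.730), so Slc25a24 was then the lower. Slc25a1, which exports citrate for fatty acid and sterol synthesis, had 41, 53 and 49 counts and 178 ± 17.2 TPM (chromosome 16, 17925223 to 17928219, minus strand). Slc25a39 exceeded Slc25a1 by a factor of 1.35 (1.09 to 1.67) in all libraries. Slc25a1 exceeded Slc25a11, the next in order, by a factor of 1.61 (1.23 to 2.13). From Slc25a30 down to Slc25a33, at rank 21, no neighbouring pair differed beyond counting error per exon length. Under the other lengths some of these pairs did and others did not. Slc25a32 had 3.73 times the level of Slc25a33 (2.12 to 6.95) per coding length. Slc25a17 had 1.75 times that of Slc25a44 (1.27 to 2.40) with the longest transcript.

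Among the ATP-Mg/phosphate carriers Slc25a24 led, and among the aspartate/glutamate carriers Slc25a13. Slc25a23 (SCaMC-3) had 28, 33 and 33 counts (48.0 ± 3.81 TPM) and Slc25a25 (SCaMC-2) had 21, 22 and 22 (22.4 ± 0.896 TPM). Slc25a24 had 5.06 times the level of Slc25a23 (4.00 to 6.44) and 10.9 times that of Slc25a25 (8.29 to 14.4), while with the longest transcript the ratios were 3.21 to Slc25a23 and 5.28 to Slc25a25, and per coding length 3.59 and 6.76. Slc25a41, their relative without the calcium-binding domain, had 0 counts and was at least 7.88-fold lower than Slc25a23. Among the aspartate/glutamate carriers of the malate-aspartate shuttle, Slc25a13 (citrin) had 41, 55 and 38 counts and 94.9 ± 14.5 TPM, and Slc25a12 (aralar) had 32, 29 and 31 counts and 34.0 ± 3.22 TPM. The ratio of Slc25a13 to Slc25a12 was 2.82 (2.14 to 3.71) and 1.46 (1.11 to 1.92) per coding length. Slc25a13 thus lay above Slc25a12 under both lengths, in every library.

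Of the dicarboxylate carriers, Slc25a10, which exchanges malate or succinate for phosphate, had 24, 33 and 25 counts (63.9 ± 8.26 TPM). Slc25a11, the oxoglutarate/malate carrier of the same shuttle as citrin, had 23, 31 and 33 counts (111 ± 19.4 TPM). Slc25a10 had 0.578 times the level of Slc25a11 (0.422 to 0.791), but 1.03 times (0.753 to 1.41) per coding length, so no order held under both. Slc25a21, which carries oxoadipate, had 0, 3 and 1 counts.

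The other amino acid carriers spanned a wide range. Slc25a44, a carrier of branched-chain amino acids, had 33, 19 and 37 counts (68.0 ± 24.0 TPM), with replicate 2 below the others. Slc25a15, the ornithine carrier, had 14, 12 and 12 counts (18.3 ± 2.27 TPM), and its paralog Slc25a2 had 2, 1 and 0, a ratio of Slc25a15 to Slc25a2 of 3.08 (0.977 to 15.6). This interval includes 1, while per coding length the ratio was 11.2 (3.54 to 56.5) and with the longest transcript 3.91 (1.24 to 19.8). The mean log2 ratio of 1.37 was 0.76 without replicate 3. The glutamate carrier Slc25a22 had 3 counts in each library, and its paralog Slc25a18 had none, too few to give a fold. Slc25a38, which supplies glycine for haem synthesis, had 7, 2 and 3 counts. Slc25a29, a carrier of basic amino acids, had 0, 0 and 2 counts, and Slc25a20, the carnitine/acylcarnitine carrier of fatty acid oxidation, had 23, 18 and 15 (31.3 ± 7.39 TPM). Slc25a29 had 0.0664 times the level of Slc25a20 (0.00785 to 0.251), or 0.0351 times (0.00415 to 0.133) per coding length. Replicate 3 alone held counts of Slc25a29, and the mean log2 ratio of -3.57 was -4.49 without it.

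All 9 cofactor and nucleotide carriers were detected. The highest per exon length was Slc25a17, a peroxisomal member, at 70.9 ± 8.80 TPM, followed by the NAD carrier Slc25a51 at 46.7 ± 4.36 TPM (33, 30 and 32 counts). Slc25a51 had 19.6 times the level of its less characterised relative Slc25a53 (9.16 to 50.1), which had 3, 3 and 1 counts, or 12.5 times (5.85 to 32.0) with the longest transcript. Slc25a16 had 14, 19 and 15 counts and Slc25a42, a coenzyme A carrier, had 1, 0 and 3, a ratio of Slc25a16 to Slc25a42 of 14.99 (5.49 to 57.3). Its mean log2 value of 3.89 was 3.03 without replicate 2 and 4.6 without replicate 3. The pyrimidine nucleotide carriers had an order per coding length but none per exon length. Slc25a33 had 4, 7 and 5 counts and Slc25a36 had 23, 26 and 24, and the ratio of Slc25a33 to Slc25a36 was 1.11 (0.605 to 1.93) per exon length but 0.228 (0.124 to 0.396) per coding length, since the merged exons of Slc25a36 span 9594 bases. Of the others in this group, the folate carrier Slc25a32 stood at 26.1 ± 4.15 TPM and the S-adenosylmethionine carrier Slc25a26 at 7.20 ± 4.90 TPM.

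The glutathione carrier pair was unequal under each length used, while the iron carriers differed beyond counting error per coding length only. Slc25a40, the paralog of Slc25a39, had 11, 7 and 3 counts (6.79 ± 4.01 TPM), and Slc25a39 had 35.6 times its level (22.8 to 58.6), or 10.9 times per coding length. Slc25a37, the mitoferrin needed by erythroid cells, had 14, 19 and 16 counts (21.9 ± 2.39 TPM), and Slc25a28, the mitoferrin of other tissues, had 10, 11 and 5 (18.6 ± 6.54 TPM). The libraries of the 2 mitoferrins overlapped in TPM, and the ratio of Slc25a37 to Slc25a28 was 1.17 (0.715 to 1.97), or 1.73 (1.05 to 2.90) per coding length.

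Among the uncoupling-type carriers, Slc25a30, first described as a kidney mitochondrial carrier (KMCP1), led with 34, 46 and 42 counts (72.0 ± 8.46 TPM). Slc25a14 (BMCP1) had 5, 9 and 5 counts and Slc25a27 (UCP4, known from brain) had 2, 2 and 0. Slc25a30 had 3.32 times the level of Slc25a14 (2.04 to 5.70), or 7.39 times (4.54 to 12.7) per coding length. Slc25a27 had 0.126 times the level of Slc25a14 (0.0313 to 0.381), or 0.191 times (0.0473 to 0.576) per coding length. The mean log2 ratio of Slc25a27 to Slc25a14 was -2.91, and -2.27 without replicate 3. Slc25a46, an outer membrane member that acts in mitochondrial shape, stood at 52.0 ± 9.63 TPM. Of the 8 less characterised members, Slc25a48 was the only one at 20 CPM or more (19, 11 and 19 counts, 39.7 ± 12.7 TPM), with 3.65 times the level of Slc25a45 (1.87 to 7.78). The liver carrier Slc25a47 had 2, 3 and 0 counts against 2, 3 and 6 for Slc25a45, a ratio of 0.421 whose interval of 0.115 to 1.31 includes 1. Its mean log2 value of -1.35 was -0.11 without replicate 3. Slc25a43 had 5 counts and Slc25a35 had 1, while Slc25a34 and Slc25a54 had 0.

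Of the 20 pairs, 19 could be compared, since Slc25a34 and Slc25a35 had 0 and 1 counts. The direction was the same in all 3 libraries for 17 of them, and the exceptions were Slc25a37 with Slc25a28 and Slc25a33 with Slc25a36. For Slc25a22 over Slc25a18, with 0 counts of Slc25a18, the size of the log2 ratio was set by the pseudocount. Its mean was 1.16, and 0.35 with a pseudocount of 1. Computed at 3 counts of Slc25a18 over all libraries, the ratio was at least 0.957, a bound that does not exclude 1. For Slc25a47 over Slc25a45, with equal counts in replicates 1 and 2, the direction was set by the exon lengths in those libraries. Of 16 pairs with counts on both sides, 12 had intervals that exclude 1. The exact two-sided sign-flip permutation test on 3 libraries cannot give a p below 0.25, the value reached by the 17 pairs (0.279 after Benjamini-Hochberg adjustment over 19 pairs), so the ratios are given with counting intervals.

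**Figure D4:**
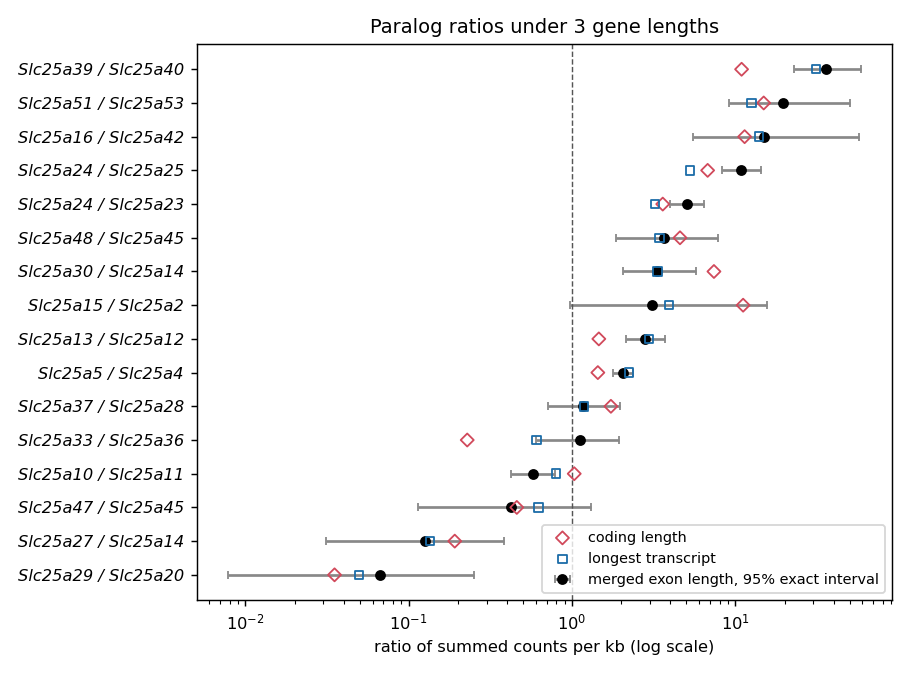
Ratio of summed counts per kb (horizontal axis, log scale) for the 16 pairs with counts on both sides, with merged exon length and its 95% exact interval (black), coding length (red) and longest transcript (blue). Slc25a39 over Slc25a40 is the largest at 35.6, and Slc25a33 over Slc25a36 and Slc25a10 over Slc25a11 cross the line at 1 between lengths.

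No member passed a test of variation between the libraries. A chi-square test set the counts of each gene against those expected from the library sizes, adjusted by Benjamini-Hochberg over 12473 genes, of which 5 (0.0401%) passed, with 0 of the 41 members tested among them. The lowest adjusted p of a member was 0.902. The test has little reach at few counts, as Slc25a29 with 0, 0 and 2 counts had an unadjusted p of 0.128. At an unadjusted p under 0.05 there were 2 members (4.88%), Slc25a44 and Slc25a3, and the share over all genes was 4.89%. An exact multinomial test, run on the 37 members with at most 300 counts, gave p = 0.0190 for Slc25a44 and 0 adjusted calls. The coefficient of variation of the 6 members above 100 CPM lay between 3.42% and 11.2%.

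The members lie on 19 chromosomes, and 4 pairs lie within 1 Mb of each other. Slc25a24 and Slc25a54 are 6.46 kb apart on chromosome 3, with 308 and 0 counts, and their coding sequences are 68.8% identical. Slc25a23 and Slc25a41 are 2.06 kb apart on chromosome 17, with 94 and 0 counts. Slc25a5 and Slc25a43 are 18.4 kb apart on the X chromosome, with 502 and 5 counts. In the first 2 of these pairs the other neighbour had no count, and Slc25a43 was detected at 3.56 CPM. Slc25a47 and Slc25a29 on chromosome 12, 0.162 kb apart, had 5 and 2 counts.

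**Figure D5:**
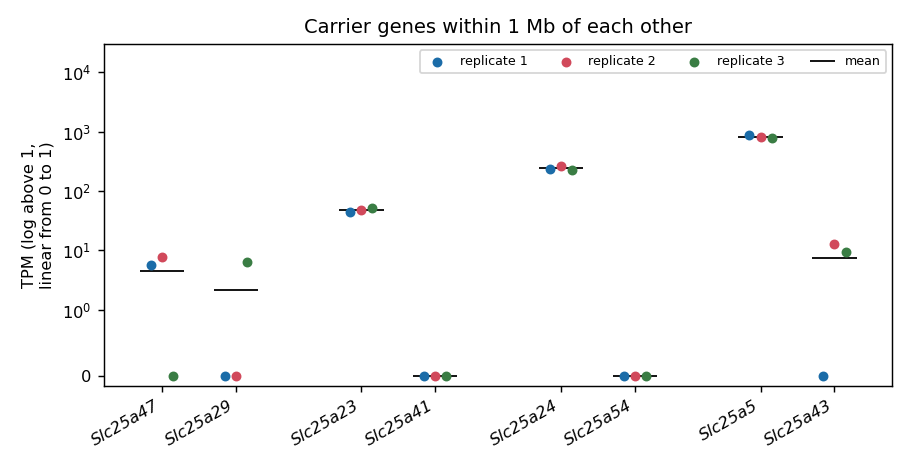
TPM (vertical axis, logarithmic above 1 and linear below) in each of 3 libraries (points) and mean (line) for the 4 pairs of carrier genes within 1 Mb of each other, the higher gene of each pair on the left. Slc25a41 and Slc25a54 are at 0 in all libraries beside Slc25a23 at 48.0 and Slc25a24 at 242 TPM.

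Some counts of members may include reads of other genes. Exons of 12 members overlap exons of 13 genes on the other strand, and no source states whether the counting used strand. Of the 12 such genes in the count table, 6 had 0 counts, among them the antisense genes beside Slc25a10, Slc25a23 and Slc25a33. Slc25a35 overlaps Rangrf over 31.3% of its exon length and had 1 count, while Rangrf had 7. Slc25a26 overlaps Lrig1 (107 counts) over 3% of its exons. For 38 members under 5% of 50-base stretches were shared with another gene, and longer reads, whose length is not stated, would share less. Of the 13 protein-coding genes of mitochondrial DNA, 6 were listed at 0 counts, while mt-Co1 had 3393.

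Genes that work beside the carriers were also read. Of the family relatives with other names, Mtch1 and Mtch2, outer membrane proteins, had 123 ± 16.3 and 89.4 ± 9.49 TPM, the uncoupling protein Ucp2 had 10.1 ± 2.20 TPM, and Ucp1, the protein of brown fat, and Ucp3 had 0 counts. Of 17 genes of the import machinery that inserts carriers into the membrane 16 were detected (median 50.7 ± 8.04 TPM), led in counts by the receptor Tomm70a (383 ± 13.0 CPM), Tomm22 (104 ± 19.8 CPM) and Tomm20 (81.7 ± 15.7 CPM). Tomm6 had 0 counts, and 72.8% of its 50-base stretches occur in other genes. All 3 outer membrane channels were detected, with Vdac1 at 700.3 ± 75.7 TPM, Vdac2 at 277 ± 39.2 TPM and Vdac3 at 52.3 ± 2.93 TPM. All 18 other inner membrane transporters were detected (median 30.5 ± 1.91 TPM), among them the serine carrier Sfxn1 (192 ± 8.60 CPM) and the calcium uniporter Mcu (106 ± 23.8 CPM).

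The enzymes on either side of the carriers had levels of their own. All 8 genes of the malate-aspartate and citrate routes were detected (median 245 ± 14.7 TPM), led in counts by citrate synthase Cs (637 ± 14.8 CPM), ATP citrate lyase Acly (592 ± 47.4 CPM) and Mdh2 (317 ± 22.2 CPM). All 8 glutamate and one-carbon genes were detected (77.1 ± 8.41 TPM), with Shmt2 at 379 ± 30.4 and Glud1 at 328 ± 20.5 CPM. Of 5 carnitine shuttle genes 4 were, with Cpt1a at 273 ± 21.5, Crat at 68.4 ± 8.77 and Cpt2 at 20.3 ± 7.55 CPM. Cpt1b had 0 counts and shares 78.6% of its 50-base stretches with another gene. Of 7 ornithine and urea cycle genes 4 were detected, namely Oat (95.3 ± 4.64 CPM), Asl (31.3 ± 7.23 CPM), Ass1 (16.2 ± 3.87 CPM) and Arg2 (3, 0 and 0 counts), and the liver enzymes Cps1, Otc and Arg1 had 0 counts. Of 8 iron-sulphur and haem genes 7 were detected, led by Fech (88.6 ± 17.7 CPM), Cpox (71.6 ± 10.1 CPM) and Alas1 (36.8 ± 3.24 CPM), and the erythroid Alas2 had 0 counts. All 7 regulators of mitochondrial biogenesis were detected, led by Pprc1 (115 ± 14.5 CPM), Tfam (102 ± 27.3 CPM) and Gabpa (82.0 ± 9.76 CPM). No gene of these lists passed the chi-square test between libraries with Benjamini-Hochberg adjustment over all genes. Of the 87 genes listed, not all of them tested, 4 had an unadjusted p under 0.05. The share over all tested genes was 4.89%.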

How the data were processed

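The authors deposited raw counts of reads per Ensembl gene for each library, made with tools that include STAR and HTSeq on mm10, per the submitters' processing notes. Not given in the sources used here are versions, annotation release, strand setting and the handling of multiply matching reads. Libraries were made with the KAPA RNA HyperPrep Kit with RiboErase, per the labels. Columns were matched to replicates by the number in their names. Names, positions and lengths came from GENCODE M21 (GRCm38), which matched 55227 of 55487 identifiers. The other 260 held 313 counts (0.0230%).

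CPM used library sizes scaled by edgeR 4.0.16 (TMM, R 4.3.3), with factors of 0.992, 1.00 and 1.01. TPM were computed from merged exon lengths over all genes. Those per coding length were computed over protein-coding genes only, so their scale differs. The chi-square test, run on every gene averaging 1 CPM or more, had a threshold of 0.05, and edgeR's biological coefficient of variation was 0.0394. Pair ratios used a pseudocount of 0.5 per library in log2, or summed counts with 95% exact binomial intervals, which cover counting error only. Scripts were tested on simulated data. Alternatives were DESeq2 1.42.0 size factors, library totals, other filters, lengths and pseudocounts, and leaving out each replicate. Python 3.11.15, scipy 1.17.1 and Biopython 1.88 were used.

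The members, lists and pairs were chosen with earlier results of these data known. 1 member and 2 list genes enter the counts and sums but are not reported here by name. Values by library are given for members of at least 100 CPM and for pairs with a gene of at least 20 CPM, and from each list the 3 highest by CPM and those with 0 counts. Further members were named after their values were seen.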

Additional observations from a re-analysis of the deposited data

How the results depend on the processing

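The number of members detected stayed at 41 with DESeq2 size factors or library totals. It was 34 when a count in every library was asked for, 32 with at least 10 counts in all, and 41 to 42 with a replicate left out. No member was called as varying between libraries under any alternative run, with 0 adjusted calls each time. The median over members was 32.3 TPM with coding length, which was also computed over protein-coding genes only. It was 18.1 TPM with the longest transcript and 25.0 TPM with exon length over protein-coding genes only. With a replicate left out it was 19.9 to 22.4 TPM. Among genes of at least 1 CPM it was 22.8 TPM, below the 31.4 TPM of such protein-coding genes, whereas over all genes it lay above. The family share of counts was 0.231% without its highest member, Slc25a3, and 0.285 to 0.296% with a replicate left out. Under these alternatives 17 to 19 of 19 pairs had 1 direction in every library used. Single pair ratios on the log2 scale turned for Slc25a33 over Slc25a36 (-2.06 with coding length and -0.65 with the longest transcript), for Slc25a10 over Slc25a11 (0.048 with coding length) and for Slc25a37 over Slc25a28 (-0.070 without replicate 3, and 0.49 without replicate 1). No paired analysis was possible because the labels give 1 group. Depth limits members below about 20 CPM, whose few counts per library leave their order open to counting error. Some neighbours above 20 CPM were open too, since from Slc25a30 down to Slc25a32 none differed beyond counting error per exon length.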
